A study of Mus musculus with 2 samples.

Results

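The genes described here encode proteins of the centrosome, the organelle that organises microtubules in animal cells. They comprise every probe set on the array whose single gene symbol is Cep followed by a digit, together with Plk4, Sass6, Stil, Pcnt, Pcm1, Cetn2, Cetn3, Cdk5rap2, Ofd1 and Nin. The rule uses names only, but it was set with earlier results of these data known. This gave 47 genes read by 103 probe sets, of 18194 genes and 34958 probe sets with a single gene symbol. Of the 47, 37 carry a Cep symbol and 10 were named singly. One of the 37, Cep83os, is a transcript listed as opposite strand to Cep83 and was kept because its symbol meets the rule.

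The cells were NIH3T3, immortalised fibroblasts derived from mouse embryos, and 2 cultures were compared on 1-colour Affymetrix arrays. The CCR4b RNAi culture had been infected with a retrovirus that delivers a hairpin against CCR4b (CNOT6L), a deadenylase of the CCR4-NOT complex that shortens mRNA poly(A) tails. The Control RNAi culture had been infected with a control hairpin retrovirus. Both were NIH3T3 cells grown in serum and carried an RNAi virus. The labels describe no clone, selection or time after infection. The comparison asks which transcripts differ when CCR4b is depleted. Each group is 1 array, so no value has a replicate error, no test was possible, and "higher" or "lower" is said of these 2 arrays alone.

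A centrosome holds a pair of centrioles, barrels of microtubules, inside a cloud of pericentriolar material that nucleates microtubules. Each centriole forms 1 new centriole per cell cycle. The kinase PLK4, held at the parent centriole by CEP192 and CEP152, acts with STIL and SASS6 to lay down the cartwheel from which the new barrel grows. Older centrioles carry appendages that anchor microtubules and dock the primary cilium, and centriolar satellites are granules around the centrosome that carry its components. Most of these roles were worked out in human cells and are given below as background.

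Cnot6l, the targeted gene, read 43.0 units on the CCR4b RNAi array and 102 units on the Control RNAi array on its brightest probe set (log2 ratio -1.25), and it was lower on all 4 of its probe sets. Actb differed little on its brightest probe set, with a log2 ratio of -0.11, and Gapdh had -0.075. Median signals over all 45101 probe sets were 8.34 units after CCR4b RNAi and 7.81 units in the control. All 7 fibroblast markers were measured, with summed signals of 13831 units after CCR4b RNAi and 12141 units in the control. Of the markers of other cell types, 0 of 3 endothelial, 0 of 3 multiciliated, 1 of 4 epithelial (Epcam), 1 of 3 muscle (Acta1) and 2 of 4 immune genes (Csf1r and Cd68) were measured, where summed signals per list were at most 42.1 units after CCR4b RNAi and 49.0 units in the control.

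Signals below the median of all values of both arrays, 8.07 units, were raised to this floor before the log2 ratio of CCR4b RNAi over Control RNAi was taken. A gene was measured if its brightest probe set reached the floor on at least 1 array. Ratios against the floor are bounds and are written as "at least". Of the 47 genes, 41 were measured and 39 were above the floor on both arrays. Cep135, Cep250, Cep290, Cep295, Cep295nl and Cep72 were below the floor on both arrays, with signals of 0.235 to 8.001 units after CCR4b RNAi and 0.526 to 6.71 units in the control. They gave no ratio, so the cartwheel protein CEP135, the centriole linker CEP250 and the ciliary transition zone protein CEP290 could not be compared at these signals.

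The centrosomal genes did not differ as a block. Their median log2 ratio was -0.11, against -0.070 over all 11915 measured genes. Their spread was wider than that of all genes, with a robust SD of 0.74 against 0.49, but this comparison is not matched for signal. Measured genes were cut into 10 equal classes by mean signal, counted from the dimmest. The robust SD was 0.84 in class 2, 0.58 in class 4 and 0.36 in class 10. Bounds numbered 2 of the 41 genes and 1855 of all measured genes. At least 2-fold lower after CCR4b RNAi were 7 of 41 genes (17.1%), namely Cep89, Cep55, Plk4, Stil, Cep57, Cep57l1 and Cep78, where 4.48% of all measured genes were. At least 2-fold higher were 3 of 41 (7.32%), namely Cep131, Cep170 and Cep83os, where 3.74% of all measured genes were. These 3 genes lay at percentiles 95.1, 97.3 and 95.7 of their signal classes. With the floor at the 25th percentile of all values, the share higher was 8.89%, against 11% of all genes. At 1.5-fold, 13 genes (31.7%) were lower against 14.6% of all genes, and 6 (14.6%) were higher against 11.3% of all genes, a share near the background. All 10 genes past 2-fold were above the floor on both arrays. The plot of signals by gene shows both arrays for each measured gene.

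**Figure D1:**
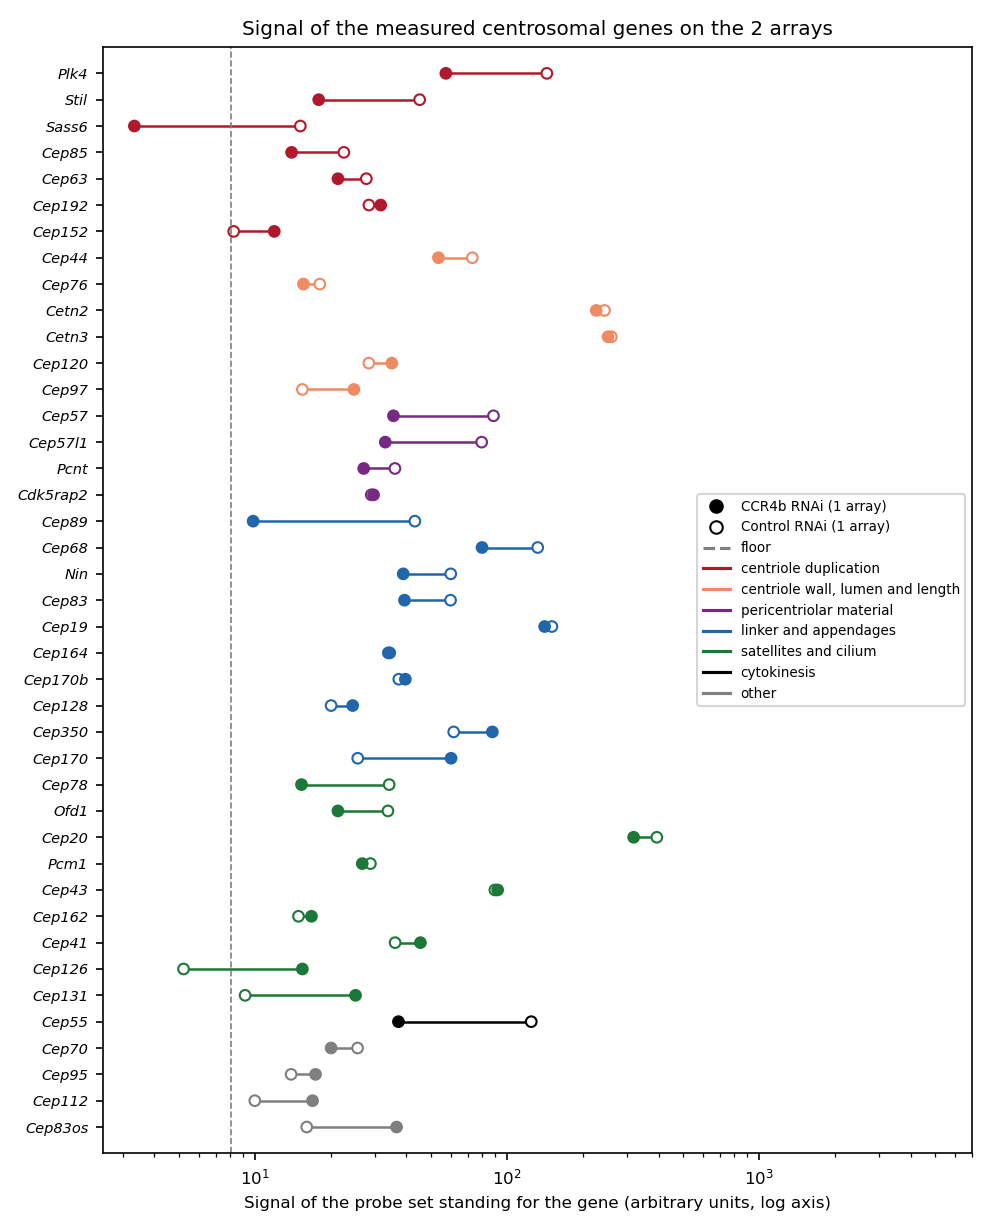
Signal of the 41 measured centrosomal genes (arbitrary units, log axis), with filled circles for the CCR4b RNAi array, open circles for the Control RNAi array, 1 array each, colours for roles and a dashed line at the floor of 8.07 units. The filled circle lies furthest to the left of the open one for Cep89 (9.86 and 43.2 units) and Sass6 (3.33 and 15.2 units), and furthest to the right for Cep126 (15.5 and 5.22 units) and Cep131 (25.1 and 9.16 units).

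The sequences upstream of 5 genes are shown. Plk4, Stil, Cep55 and Cep78 were at least 2-fold lower after CCR4b RNAi on every measured probe set, and Sass6, a partner of PLK4 and STIL that did not pass 2-fold by its brighter probe set, was lower on both of its own. Each is the 250 bases before the annotated start in RefSeq (GRCm38.p6), written 5' to 3' on the coding strand, which is the plus strand except for Cep78. Plk4 lies at chr3:40799701-40799950, Stil at chr4:114999868-115000117, Sass6 at chr3:116594708-116594957, Cep55 at chr19:38054791-38055040, the downstream of its 2 listed starts, and Cep78 at chr19:15984990-15985239 on the minus strand. Capitals mark the letters of the CHR element (TTTGAA or TTTAAA) and of the E2F element (TTCCCGC or TTCGCGC or TTGCCGC or TTGGCGC) on either strand. Both elements are known from promoters of cell cycle genes.
Plk4: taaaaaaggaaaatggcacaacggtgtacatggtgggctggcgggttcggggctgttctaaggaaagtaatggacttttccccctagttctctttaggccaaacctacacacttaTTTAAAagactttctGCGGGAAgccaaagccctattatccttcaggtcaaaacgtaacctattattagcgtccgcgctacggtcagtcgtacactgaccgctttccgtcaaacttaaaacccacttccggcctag
Stil: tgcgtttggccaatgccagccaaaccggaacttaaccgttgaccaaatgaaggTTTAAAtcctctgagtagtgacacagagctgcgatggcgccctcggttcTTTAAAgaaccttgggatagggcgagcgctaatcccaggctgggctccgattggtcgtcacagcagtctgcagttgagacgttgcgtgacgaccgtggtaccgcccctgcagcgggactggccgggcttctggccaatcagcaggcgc
Sass6: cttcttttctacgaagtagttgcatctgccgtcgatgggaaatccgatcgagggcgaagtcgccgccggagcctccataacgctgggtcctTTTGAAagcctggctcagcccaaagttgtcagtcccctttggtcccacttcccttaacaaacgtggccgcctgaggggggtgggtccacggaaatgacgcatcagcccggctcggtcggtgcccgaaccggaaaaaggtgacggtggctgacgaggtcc
Cep55: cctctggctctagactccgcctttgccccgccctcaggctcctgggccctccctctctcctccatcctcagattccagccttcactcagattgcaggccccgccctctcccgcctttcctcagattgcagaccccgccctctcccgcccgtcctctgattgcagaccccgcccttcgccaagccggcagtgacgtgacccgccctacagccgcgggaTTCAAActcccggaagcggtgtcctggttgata
Cep78: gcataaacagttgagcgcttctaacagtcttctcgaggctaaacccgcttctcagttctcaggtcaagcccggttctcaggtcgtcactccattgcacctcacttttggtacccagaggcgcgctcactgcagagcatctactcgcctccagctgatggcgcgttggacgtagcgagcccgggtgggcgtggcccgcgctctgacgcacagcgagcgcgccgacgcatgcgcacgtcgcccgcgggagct

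The CHR letters begin 135 bases before the start in Plk4, 197 and 148 bases before it in Stil, 159 in Sass6 and 33 in Cep55, and the Cep78 window holds none. E2F letters stand 120 bases before the start in Plk4 and were not found in the other windows. A promoter entry existed for 36 of the 41 measured genes. CHR letters were present in 5 of the 7 genes at least 2-fold lower (71.4%), in 1 of the 3 at least 2-fold higher, in 5 of 26 genes within 2-fold, Sass6 among them (19.2%), and in 28.1% of all 27025 genes with an entry, counting a gene if any of its listed starts matched. E2F letters were present in 2 of the 7 lower genes (28.6%), 1 of the 3 higher genes and 11 of the 26 within 2-fold (42.3%). Of all genes, 9.01% had them. CCAAT, read on both strands, was present in 4 of the 7 lower genes (57.1%), 1 of the 3 higher genes and 12 of the 26 (46.2%). Of all genes, 37.5% had it. Of 32851 windows, 181 had matches of different elements that overlapped. These short letter matches are descriptions and not binding sites, and they were sought after the ratios were known.

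Among the 7 genes of centriole duplication, 2 were at least 2-fold lower after CCR4b RNAi (28.6%, against 4.48% of all genes), 4 were lower by 1.5-fold or more (57.1%, against 14.6%) and 0 were as much higher. Plk4 (gene ID 20873), the kinase that starts duplication, read 57.3 units on the CCR4b RNAi array and 144 units on the Control RNAi array on its brightest probe set, 2.51-fold lower (log2 ratio -1.33). Genes of similar signal, 1 of 10 equal classes of measured genes by mean signal, had a robust SD of 0.43, and Plk4 lay at percentile 1.60 among them. Its other probe sets read 24.2 units after CCR4b RNAi and 64.1 units in the control, and 13.9 units after CCR4b RNAi and 38.8 units in the control. The log2 ratios of these were -1.41 and -1.49, so that all 3 probe sets gave a like difference. The brightest ends in _s_at, a kind that can hybridise to several transcripts, and the other 2 do not.

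Stil (gene ID 20460), which binds PLK4 and brings SASS6 to the centriole, has 1 probe set. It read 17.9 units after CCR4b RNAi and 45.1 units in the control, 2.51-fold lower (log2 ratio -1.33, robust SD of like genes 0.58, percentile 2.35). With the floor raised to the 75th percentile of all values its log2 ratio was -0.33, since its CCR4b RNAi signal lies below that floor. Sass6 (gene ID 72776), the building block of the cartwheel, was above the floor in the control only. Its brighter probe set read 3.33 units after CCR4b RNAi and 15.2 units in the control, at least 1.88-fold lower. The second read 2.55 units after CCR4b RNAi and 18.3 units in the control, at least 2.27-fold lower. Both control signals were within 2.27 times the floor, so larger differences could not be measured for Sass6.

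The other duplication genes lay within the spread of genes of like signal or differed between probe sets. Cep152, the scaffold that holds PLK4, read 11.96 units after CCR4b RNAi and 8.25 units in the control, close to the floor (log2 ratio 0.53, robust SD 0.84). Cep192, its partner scaffold, read 31.6 units after CCR4b RNAi and 28.4 units in the control (log2 ratio 0.16, robust SD 0.58). Cep63, which forms a complex with CEP152, read 21.4 units after CCR4b RNAi and 27.7 units in the control (log2 ratio -0.37, robust SD 0.58). Cep85, a STIL-binding protein, was 1.61-fold lower at 14.0 units after CCR4b RNAi and 22.6 units in the control, about 1 robust SD of like genes (0.68), but its dimmer probe set read 10.4 units after CCR4b RNAi and was below the floor in the control.

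Of the 6 measured genes for the centriole wall, lumen and length, 5 lay within 1.5-fold (83.3%, where 74% of all genes did), and their median log2 ratio was -0.076, near that of all genes. The calcium-binding centrins were bright. Cetn3 read 252 units after CCR4b RNAi and 260 units in the control. Cetn2 read 226 units after CCR4b RNAi and 244 units in the control on a probe set open to cross-hybridisation, and 92.0 units after CCR4b RNAi and 151 units in the control on its other one, 1.64-fold lower. The ratios of Cetn3 and of the brighter Cetn2 probe set, -0.043 and -0.11, turned positive in some of the other scalings. Cep44, a wall protein, had a log2 ratio of -0.45, Cep76, which limits reduplication, -0.22, and Cep120, an elongation factor, 0.30, all less than the robust SD of like genes. Cep97, which caps the centriole with CP110, was 1.60-fold higher by its brightest reading, at 24.7 units after CCR4b RNAi and 15.5 units in the control. Its next probe set had the opposite sign, 12.7 units after CCR4b RNAi and 15.4 units in the control, and the dimmest of the 3 measured passed below the floor after CCR4b RNAi.

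In the pericentriolar material, the related genes Cep57 and Cep57l1 were lower and Cdk5rap2 was not. CEP57 and CEP57L1 hold parent and new centrioles together within the surrounding material in human cells. Cep57 (gene ID 74360) read 35.5 units after CCR4b RNAi and 88.5 units in the control, 2.49-fold lower (log2 ratio -1.32, robust SD 0.50, percentile 1.76). Its second probe set read 21.9 units after CCR4b RNAi and 28.1 units in the control, 1.29-fold lower. Cep57l1 (gene ID 103268) read 33.0 units after CCR4b RNAi and 79.5 units in the control, 2.41-fold lower (log2 ratio -1.27, percentile 2.10). Its second probe set, near the floor, read 9.34 units after CCR4b RNAi and 11.9 units in the control, 1.27-fold lower. For each of these paralogs, both measured probe sets were lower, but the dimmer one was much less so.

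Pcnt, which encodes the scaffold pericentrin, gave unlike readings. Its brighter probe set, open to cross-hybridisation, read 27.1 units after CCR4b RNAi and 36.0 units in the control, 1.33-fold lower. The other, which is not of that kind, read 3.02 units after CCR4b RNAi and 31.2 units in the control, at least 3.87-fold lower. Both were lower, and whether Pcnt passes 2-fold depends on the probe set. Cdk5rap2, which recruits the gamma-tubulin ring complex, read 29.6 units after CCR4b RNAi and 29.0 units in the control, and 23.6 units after CCR4b RNAi and 20.2 units in the control on its second probe set. Its log2 ratio of 0.030 turned negative on division by the array medians.

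Genes of the linker and the appendages went both ways. Of 10 measured, 4 were 1.5-fold lower or more (against 14.6% of all genes), 1 of these past 2-fold, and 1 was past 2-fold higher (against 4.48% and 3.74% of all genes), with a median log2 ratio of -0.057. Cep89 (gene ID 72140), a distal appendage protein, had the lowest ratio of the centrosomal genes above the floor on both arrays. It read 9.86 units after CCR4b RNAi and 43.2 units in the control, 4.38-fold lower (log2 ratio -2.13, robust SD 0.58, percentile 0.336). Its second probe set read 18.0 units after CCR4b RNAi and 19.9 units in the control, 1.10-fold lower, and the dimmest stayed below the floor on both arrays. The Cep89 difference thus rests on 1 probe set. With the floor at the 75th percentile its log2 ratio was a bound, at most -0.27, since its CCR4b RNAi signal lies below that floor. Another 3 genes of the older centriole or the linker lay between 1.5-fold and 2-fold lower. Nin, which encodes the subdistal appendage protein ninein, read 38.8 units after CCR4b RNAi and 59.9 units in the control, and 12.2 units after CCR4b RNAi and 19.1 units in the control on its second probe set. Its probe sets gave close log2 ratios, -0.63 and -0.64.

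Cep83, which docks the distal appendages, read 39.3 units after CCR4b RNAi and 59.8 units in the control, 1.52-fold lower, and its other measured probe sets had log2 ratios of -0.049 and at most -0.45. Cep68, a linker protein, was 1.66-fold lower at 79.7 units after CCR4b RNAi and 133 units in the control, yet its dimmer probe sets had log2 ratios of 0.037 and 0.61, and its dimmest measured one passed below the floor after CCR4b RNAi. Nin thus differed alike on its 2 measured probe sets, and Cep68 did not.

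Cep170 (gene ID 545389), a subdistal appendage protein that binds microtubules, was higher. It read 60.1 units after CCR4b RNAi and 25.6 units in the control, 2.35-fold higher (log2 ratio 1.23, robust SD 0.57, percentile 97.3), and 53.4 units after CCR4b RNAi and 24.1 units in the control on its second probe set, 2.22-fold higher. It was the only gene past 2-fold upward that had at least 2 measured probe sets which both passed it. Its relative Cep170b read 39.6 units after CCR4b RNAi and 37.3 units in the control (log2 ratio 0.087, which turned negative on division by the array medians). Cep350, a large centriolar protein, read 87.6 units after CCR4b RNAi and 61.6 units in the control, 1.42-fold higher, beyond the robust SD of like genes (log2 ratio 0.51 against 0.43). Cep164, the distal appendage protein that recruits the kinase TTBK2 to start a cilium, read 33.9 units after CCR4b RNAi and 34.3 units in the control. Cep128, a subdistal appendage protein, had a log2 ratio of 0.28, and Cep19, which acts at the ciliary base, had -0.096, which turned positive under 1 or more scalings.

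**Figure D2:**
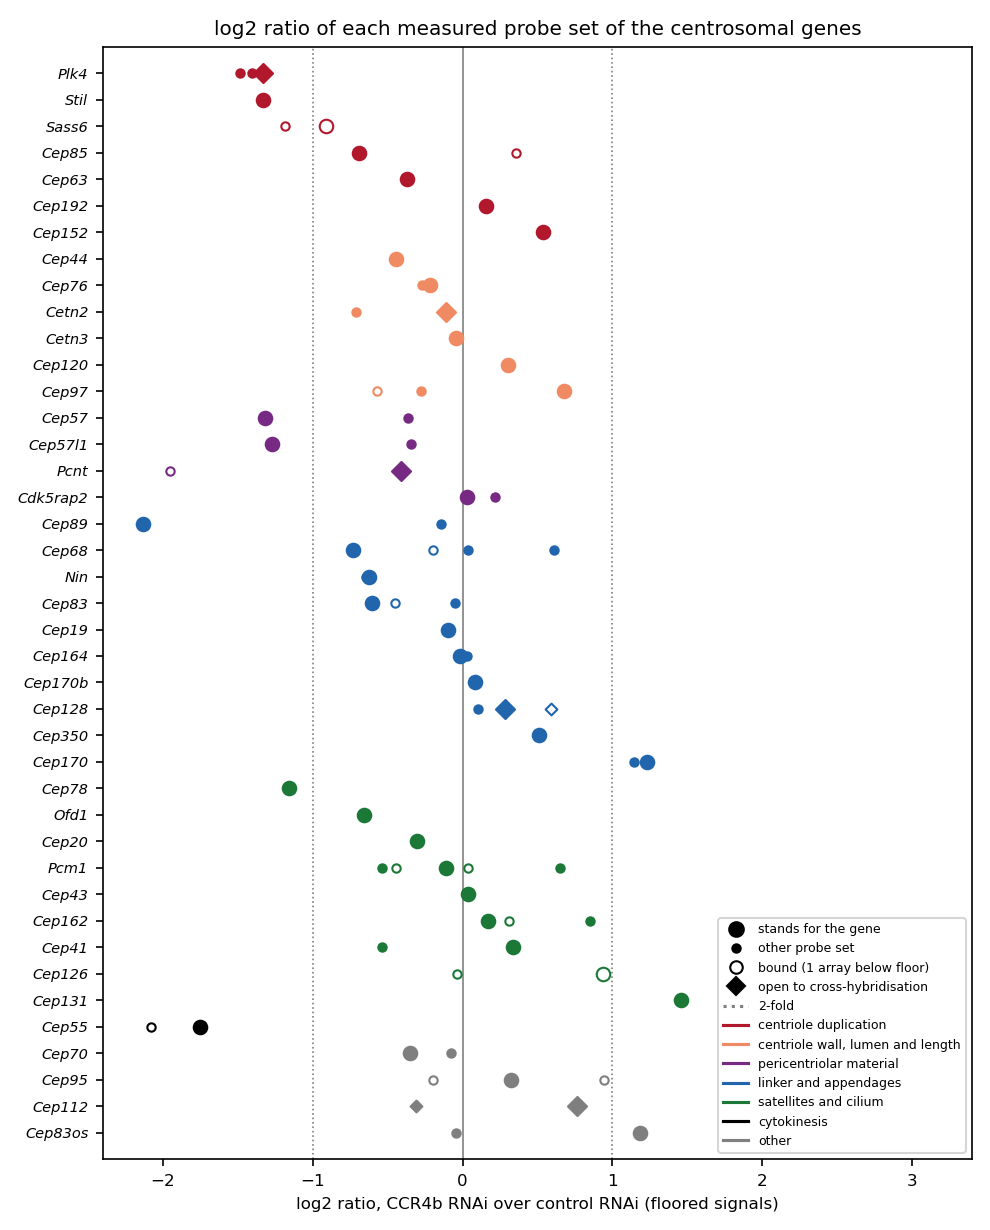
log2 ratio of CCR4b RNAi over Control RNAi for each of the 78 measured probe sets of the 41 genes. Large symbols stand for the gene, open symbols are bounds, diamonds are probe sets open to cross-hybridisation and dotted lines mark 2-fold. The 3 Plk4 symbols lie together between -1.49 and -1.33, whereas those of Cep89 lie at -2.13 and -0.14.

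Genes of the centriolar satellites and the cilium base also went both ways, with a median log2 ratio of 0.037 over 9 measured. Cep78 (gene ID 208518), a centriolar protein whose human gene is mutated in a cone-rod dystrophy with hearing loss, read 15.3 units after CCR4b RNAi and 34.1 units in the control on its single probe set, 2.23-fold lower (log2 ratio -1.16, robust SD 0.58, percentile 4.37). Ofd1, a protein of distal centrioles and satellites, read 21.4 units after CCR4b RNAi and 33.8 units in the control, 1.58-fold lower. Cep131 (gene ID 12009), a satellite protein, read 25.1 units after CCR4b RNAi and 9.16 units in the control, near the floor, on its single probe set. At 2.74-fold higher (log2 ratio 1.46, robust SD 0.68, percentile 95.1), it had the highest ratio of the centrosomal genes above the floor on both arrays.

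Cep126, a microtubule-binding centrosomal protein, read 15.5 units after CCR4b RNAi and 5.22 units, under the floor, in the control, so it was at least 1.92-fold higher. Its second probe set read 4.54 units after CCR4b RNAi and 8.28 units in the control. Pcm1, which encodes the scaffold of the satellites, read 26.7 units after CCR4b RNAi and 28.8 units in the control on its brightest probe set. The next read 16.2 units after CCR4b RNAi and 23.6 units in the control, and another read 15.4 units after CCR4b RNAi and 9.81 units in the control. Its 5 probe sets spanned log2 ratios from -0.54 to 0.65, so no direction can be given for Pcm1.

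The rest of the satellite and cilium genes lay within 1.5-fold. Cep20 was the brightest, with 318 units after CCR4b RNAi and 394 units in the control (log2 ratio -0.31, robust SD 0.36). Cep43, a partner of CEP350, read 92.0 units after CCR4b RNAi and 89.7 units in the control, with a ratio whose sign depended on the scaling. Cep41, a ciliary protein needed for tubulin glutamylation, had a log2 ratio of 0.33 on its brighter probe set and -0.53 on the other measured one. Cep162, which acts at the ciliary base, had 0.17 on its brightest probe set and 0.85 on the next.

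Cep55 (gene ID 74107), which recruits the abscission machinery to the midbody at the end of cytokinesis, was lower on both probe sets. The brighter read 37.2 units after CCR4b RNAi and 125 units in the control, 3.36-fold lower (log2 ratio -1.75, robust SD 0.43, percentile 0.336). The dimmer read 7.77 units after CCR4b RNAi, below the floor, and 34.2 units in the control, at least 4.23-fold lower. Cep83os read 36.5 units after CCR4b RNAi and 16.1 units in the control on 1 probe set, 2.27-fold higher, and 17.3 units after CCR4b RNAi and 17.9 units in the control on the other. The log2 ratios of the pair, 1.18 and -0.044, do not agree on a difference. With the floor at the 75th percentile the higher one was a bound, at least 0.028, since its control signal lies below that floor. Cep112 was 1.69-fold higher on 1 probe set open to cross-hybridisation and 1.24-fold lower on another such. Cep70 and Cep95 had log2 ratios of -0.35 and 0.32 on their brightest probe sets. The dimmer Cep95 probe sets differed in sign, 1 at least 1.92-fold higher and 1 at least 1.14-fold lower.

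**Figure D3:**
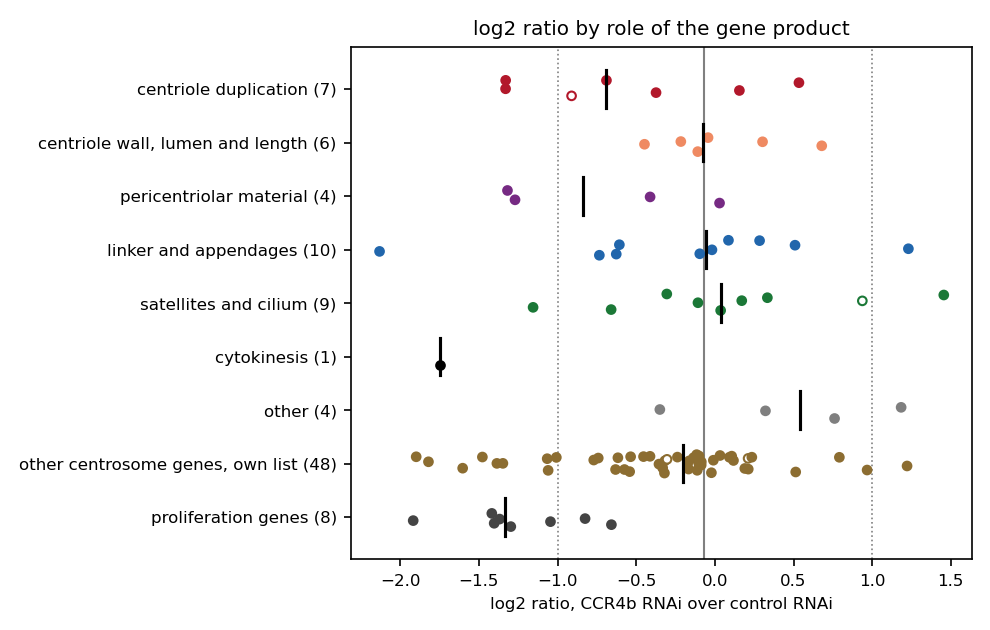
log2 ratio of CCR4b RNAi over Control RNAi for each measured gene, 1 point per gene, by role, with the number of genes in brackets. Black bars are medians, open points are bounds, the grey line is the median of all measured genes (-0.070) and dotted lines mark 2-fold. All 8 proliferation genes lie below -0.65, whereas the satellite and linker genes spread to both sides.

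Different probe sets are the only repeated reading of a gene here. Of 26 genes with at least 2 measured probe sets, 16 had the same sign on all of them (61.5%), against 52.2% of 5540 genes with as many in the whole table. Counting only those that reached the floor on both arrays, 13 of 20 genes did (65.0%), against 56.5% of 4550. In size, however, the probe sets of one gene differed more than in the whole table, with a median range of log2 ratios of 0.77 against 0.50 over all measured probe sets and 0.64 against 0.43 over those that reached the floor on both arrays. Of the 7 genes at least 2-fold lower, Plk4 and Cep55 passed 2-fold on each of several measured probe sets, Stil and Cep78 have 1 probe set, and Cep57, Cep57l1 and Cep89 were less than 1.5-fold lower on their second. Of the 3 higher genes, Cep170 was past 2-fold on 2 probe sets, Cep131 has 1 and Cep83os had opposite signs.

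Genes of cell proliferation were lower in the same pair of arrays. Of 10 listed, 8 were measured. All 8 were lower by 1.5-fold or more (100%, against 14.6% of all genes), 6 of them by 2-fold or more (75%, against 4.48%). Their median log2 ratio was -1.33. Signals were 75.8 to 989 units after CCR4b RNAi and 156 to 1751 units in the control. Mcm5 (log2 ratio -1.92) and Rrm2 (-0.66) were read by probe sets open to cross-hybridisation. Mki67, a marker of cycling cells, had a log2 ratio of -1.30 and Ccna2, which encodes cyclin A2, -1.42, beside -1.33 for Plk4 and Stil and -1.75 for Cep55. Their part in the differences of the centrosomal genes was not tested. On bulk RNA, fewer cells that express a gene and less of its mRNA per cell cannot be told apart.

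Other centrosome genes, taken from a list of 52 that excludes those above, had a larger share of lower genes than of higher ones. Of 48 measured, 9 were at least 2-fold lower (18.8%, against 4.48% of all genes) and 1 was at least 2-fold higher (2.08%, against 3.74%). The median log2 ratio was -0.21. Of the 8 subunits of HAUS, the augmin complex that nucleates microtubules within the spindle, 4 were at least 2-fold lower, Haus6 (3.73-fold), Haus1 (3.04-fold), Haus8 (2.78-fold) and Haus4 (2.09-fold), and 3 of the other 4 were less than 2-fold lower. The last, Haus5, is a bound, at least 1.23-fold lower. The dimmer Haus6 probe set gave a log2 ratio of -0.59. The 4 Haus2 probe sets differed in sign, with log2 ratios from -0.96 to 0.38. Tubg1, the gamma-tubulin gene, was 2.54-fold lower at 31.3 units after CCR4b RNAi and 79.5 units in the control. Nedd1, which targets the gamma-tubulin ring to centrosomes and spindles, was 2.08-fold lower, and 1.57-fold lower on its dimmer probe set. The other 7 measured genes of that ring gave log2 ratios from -0.77 to 0.97, that of Tubgcp6 being a bound.

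Tacc3, a spindle microtubule protein, was 3.53-fold lower, but 1.22-fold on a dimmer probe set open to cross-hybridisation. Aspm, a spindle pole protein, was 2.61-fold lower and had log2 ratios from -1.62 to -0.91 over its 5 probe sets. Ccdc77 was 2.01-fold lower by its brightest probe set but 1.05-fold by another. Ttbk2, the kinase recruited by CEP164, was the 1 gene past 2-fold upward, at 19.0 units after CCR4b RNAi and 8.15 units in the control, close to the floor. A dimmer Ttbk2 probe set was at least 1.22-fold higher. The matrix of ratios under each processing shows how far the genes past 1.5-fold moved with the choices made.

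**Figure D4:**
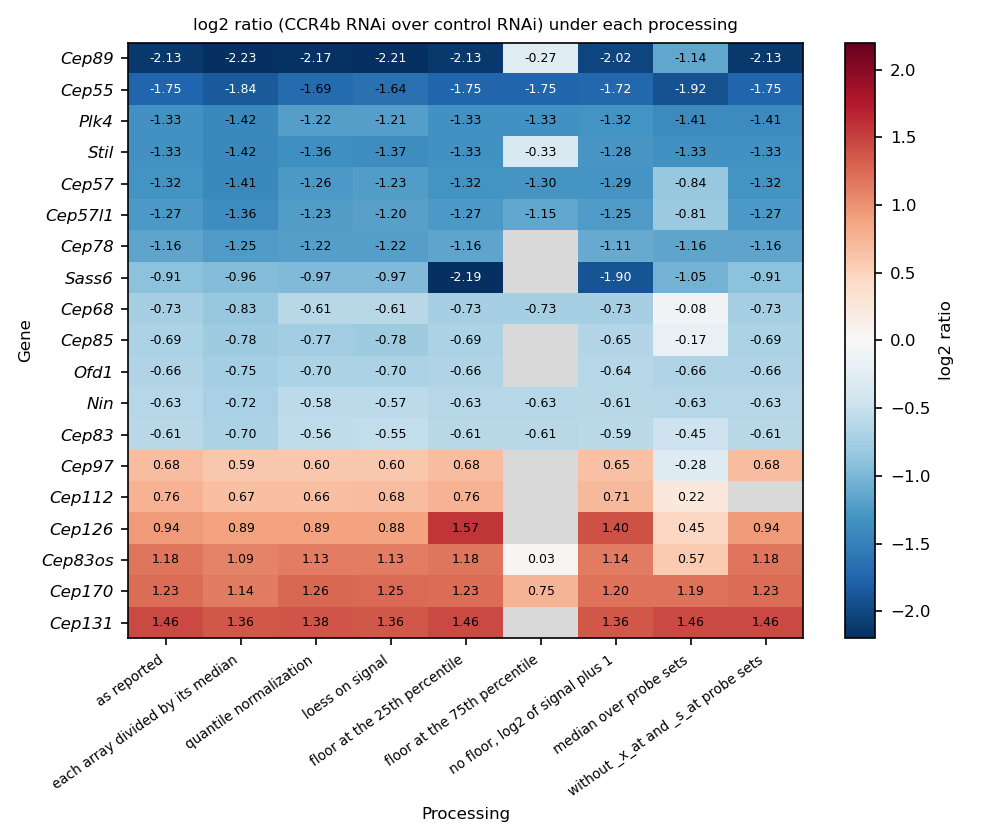
log2 ratio of CCR4b RNAi over Control RNAi for the 19 genes at least 1.5-fold lower or higher, as reported and under 8 other processings. Grey cells are genes not measured under that choice. Cep55 and Plk4 stay below -1.2 throughout, whereas Cep97 moves between -0.28 and 0.68.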

How the data were processed

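Total RNA of 2 cultures was measured on 1 Affymetrix Mouse Genome array each. The deposited table holds 1 linear-scale intensity per probe set, which the authors computed in GCOS with a global normalization, per the series design text. The GCOS version, the target value and any detection calls were not used here, as the labels do not state them. Array number limits the precision.

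Genes were named through the platform annotation, and all 47 gene IDs matched RefSeq. Signals were used as deposited, raised to the 50th percentile of all values (8.07 units) and turned into log2 ratios in Python 3.11.15 with pandas 2.3.3. Each gene was read by its brightest probe set (by mean log2 signal). The robust SD is 1.4826 times the median absolute deviation of the ratios in 1 of 10 equal classes of mean signal, and it holds real differences between cultures as well as error. Only the members, the listed genes and those past 2-fold among the other centrosome genes were named, apart from Haus2, Haus5 and Tubgcp6. These were named for unlike probe sets or for being bounds. The members and lists were chosen with earlier results of these data known. The steps were tested on simulated data with changes placed in brighter genes only. That test does not cover calls at the dim signals of many centrosomal genes. The 8 alternatives were 3 scalings, 3 floors (1 of them none), the median over probe sets, and no _x_at or _s_at probe sets.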

Additional observations from a re-analysis of the deposited data

How the results depend on the processing

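The 3 scalings were division by array medians, quantile, and loess with a span of 0.3. They left the same 7 centrosomal genes (17.1%) at least 2-fold lower and the same 3 (7.32%) at least 2-fold higher. Of all genes, 5.44%, 4.06% and 3.97% were lower under them, and 3.05%, 3.71% and 3.69% were higher. With the floor at the 75th percentile (35.8 units), 21 genes were measured. Of these, 4 were at least 2-fold lower (19%, against 3.64% of all genes) and 0 higher (against 1.73%). Stil, Cep89, Cep83os and Cep170 then gave bounds within 2-fold, since 1 signal of each lay below that floor. Larger differences could not be measured for them. Cep78 and Cep131 were not measured. The median log2 ratio of the centrosomal genes was -0.27, and 1 duplication gene was 2-fold lower. Of the other centrosome genes, 0 were 2-fold higher (against 1.73% of all genes). With no floor (1 unit added before the log), 6 of 47 centrosomal genes were 2-fold higher (12.8%, against 11% of all genes), the added ones being Cep126, Cep250 and Cep72, and 8 were 2-fold lower (17%, against 11.3%), with Sass6 added. Other centrosome genes at least 2-fold higher numbered 2 with quantile normalization, 2 with loess and 0 with the median over probe sets. The shares of all genes were 3.71%, 3.69% and 3.14%. Those at least 2-fold lower numbered 7 with loess (against 3.97% of all genes) and 7 with the median over probe sets (against 3.62%). They numbered 6 with the floor at the 75th percentile (against 3.64% of all genes) and 11 with it at the 25th (against 11%). Cep97 turned to -0.28 with the median over probe sets. That median dropped Cep57 and Cep57l1 from the 2-fold lower genes and added Pcnt and Sass6, giving 7 of 41 (17.1%, against 3.62% of all genes). It also dropped Cep83os from the 2-fold higher genes (log2 ratio 0.57), leaving 2 of 41 (4.88%, against 3.14% of all genes). With the floor at the 25th percentile, 8 of 45 were 2-fold lower (17.8%, against 11% of all genes), Sass6 being added, and 4 were 2-fold higher (8.89%, against 11%), Cep126 being added. Leaving out _x_at and _s_at probe sets kept the 7 lower genes and added Pcnt, giving 8 of 40 (20%, against 4.54% of all genes). Of 41 genes, 35 kept their sign under the 3 scalings and 32 under all 8 alternatives that measured them. No paired analysis was possible because each group holds 1 array. With 1 array per group, no replicate could be left out. Of 103 probe sets, 25 were below the floor on both arrays.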
